A study of Homo sapiens with 12 samples.

Results

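The response of A549 cells to over-expression of SRSF2 was measured by RNA sequencing. A549 is an established human lung adenocarcinoma cell line. Of the 12 libraries of the series, 6 belong to this comparison and were chosen by their labels: 3 from A549 cells labelled untreated and 3 from A549 cells labelled as over-expressing SRSF2. The other 6 come from H1650, another established lung cancer cell line with the same pair of groups. Those were used to estimate the spread and to test whether a change differed between the lines. RNA was polyadenylated and isolated with TRIzol, and no group carries any further treatment in its labels. The titles of the untreated libraries hold the letters NC, which the labels do not explain. Neither the construct, the time of expression nor the number of clones is given in the sources used here. Over-expression is taken from the labels, since counts of SRSF2 were not analysed here. Nothing says that replicates were separate cultures, so p-values measure only the spread between these libraries, which may be technical.

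SRSF2 is a serine/arginine-rich (SR) protein. SR proteins bind exons in pre-mRNA and help the spliceosome select splice sites, and they are phosphorylated by the CLK and SRPK kinases. SRSF2 stays in the nucleus and is also known to act at gene starts, where it helps to free the kinase P-TEFb from the 7SK complex, and P-TEFb in turn releases paused RNA polymerase II. Counts per gene measure total RNA of a gene and carry no information on which exons were joined.

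A549 libraries held 23876899 to 28585990 counts, and levels are given as CPM, counts per 1e+06 counts of a library after TMM scaling. Of 15991 genes tested, 5162 (32.3%) passed an adjusted p of 0.05 in edgeR. Among them 2620 genes (16.4%) were higher and 2542 (15.9%) lower in SRSF2 libraries. Most of these changes were small: 77.3% of the genes called lay within 0.5 of 0 on the log2 scale, where 1 is a 2-fold change. Only 280 genes (1.75%) were higher and 60 (0.375%) lower by at least 1 on that scale. When genes with a mean below 1 CPM over all 12 libraries of both lines were left out, these numbers were 171 and 25. The first principal component of the A549 libraries (49.5% of the variance) separated the groups, and the second (14.05%) ran from 22.3 in SRSF2 replicate 1 to -18.8 in SRSF2 replicate 3. The 5 epithelial markers KRT8, KRT18, KRT19, CDH1 and EPCAM summed to 6809 to 7291 CPM in untreated and 6223 to 6270 CPM in SRSF2 libraries. Of 5 alveolar markers only SFTPB was analysed here, at 0.102 to 0.393 CPM. Of the leukocyte markers only CD14 was analysed here, at 5.34 to 6.41 CPM in untreated and 3.47 to 3.96 CPM in SRSF2 libraries. Of 6 fibroblast markers only COL1A1 and COL3A1 were, summing to 11.9 to 14.5 CPM in untreated and 8.42 to 10.05 CPM in SRSF2 libraries. The part of these markers in the results was not tested, and in bulk RNA fewer cells of a type and less RNA per cell cannot be told apart.

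Among genes that reached 5 CPM in either group and lie outside the interferon, p53 and replication lists, the largest rise was in EGR1, an immediate-early zinc finger transcription factor (chromosome 5, 138465490 to 138469315, plus strand, GRCh38). EGR1 stood at 1.01, 0.777 and 0.716 CPM in the 3 untreated libraries and at 21.8, 22.1 and 21 CPM in the 3 SRSF2 libraries. Its log2 fold change was 4.69 ± 0.14 (SE, adjusted p = 1.8e-23). PERM1, a regulator of muscle and mitochondrial genes (chromosome 1, 975204 to 982093, minus strand), rose from 0.174, 0.212 and 0.307 CPM to 6.09, 5.81 and 6.05 CPM, a log2 fold change of 4.66 ± 0.24 (SE). In both genes the untreated level was low, where 3 counts correspond to 0.105 to 0.126 CPM, and the SRSF2 libraries lay within a narrow band. The long noncoding RNA AL645608.7 (chromosome 1, 995966 to 998051, minus strand) rose from 1.43, 1.48 and 1.06 CPM to 12.96, 14.01 and 13.8 CPM. ATF3, a stress-induced transcription factor (chromosome 1, 212565334 to 212620777, plus strand), rose from 6.14, 5.05 and 6.47 CPM to 59.6, 53.3 and 53.2 CPM (log2 fold change 3.23 ± 0.13, SE). PPP1R15A, which directs a phosphatase to dephosphorylate eIF2 alpha and so restores translation after stress, rose from 46.9, 40.9 and 47.9 CPM to 251, 233 and 225 CPM (log2 fold change 2.38 ± 0.08, SE). Every SRSF2 library of these genes lay above every untreated one, as the choice of genes required. The same held for 22.7% of all genes tested.

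PFKFB4 makes and breaks down the activator of phosphofructokinase and rose from 15.3, 11.6 and 11.6 CPM to 54.8, 47.2 and 46.9 CPM. NR1D1, the clock repressor REV-ERB alpha, rose from 8.2, 7.21 and 7.43 CPM to 27.3, 29.5 and 27.9 CPM. SYNE1, which encodes the giant nuclear envelope protein nesprin 1, rose from 107, 112 and 109 CPM to 331, 307 and 292 CPM. These 3 genes had log2 fold changes of 1.95, 1.89 and 1.51. DDIT3, the stress transcription factor CHOP, rose from 1.64, 1.24 and 1.91 CPM to 6.499, 6.397 and 4.36 CPM, and 39.6% of its exonic bases overlap exons of other genes. The peptide hormone gene UCN2 had a log2 fold change of 1.84, the epidermal lipoxygenase ALOXE3 1.89 and the membrane carboxypeptidase M (symbol CPM) 1.62. Of the exonic bases of UCN2, 19.5% overlap PFKFB4 on the same strand, so the counts of these 2 genes may not be independent. The phospholipase PLA2G4C rose by 1.52, the chromatin regulator ARID5B by 1.51 and AMH, the anti-Mullerian hormone gene, by 1.51 on the same scale.

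By the same rule, the largest falls were smaller than the largest rises. AXIN2, a feedback inhibitor and standard target of Wnt signalling (chromosome 17, 65528563 to 65561647, minus strand), fell from 8.095, 9.51 and 8.99 CPM to 2.45, 3.69 and 4.12 CPM, a log2 fold change of -1.37 ± 0.16 (SE, adjusted p = 2.1e-08). RNF43, a ubiquitin ligase that removes Wnt receptors, fell from 6.28, 8.41 and 7.56 CPM to 3.35, 3.09 and 2.905 CPM. Both are low in these cells, and 25.2% of the exonic bases of AXIN2 and 73.9% of those of RNF43 overlap exons of other annotated genes. SPDEF, a transcription factor of secretory airway cells, fell from 26.3, 24.3 and 22.5 CPM to 10.1, 11.9 and 14.6 CPM. AQP3, a channel for water and glycerol, fell from 33.6, 35.4 and 36.9 CPM to 15.2, 16.1 and 20.2 CPM. Both genes were near a 2-fold fall, with log2 fold changes of -0.996 and -1.04. FGFR3, a fibroblast growth factor receptor, fell by 0.91 on the log2 scale, from 15.8, 18.9 and 15.9 CPM to 7.77, 9.84 and 9.19 CPM. The remaining genes among the 15 largest falls were ZDHHC8BP (-1.23), the hyaluronan-binding CEMIP (-1.21), LINC02593 (-1.10), RAB26 (-1.10), TMEM37 (-0.99), the intermediate filament gene NES (-0.97), the sphingosine phosphate receptor S1PR5 (-0.96), SOX8 (-0.94), ZNF467 (-0.91) and AC093627.3 (-0.90).

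**Figure D1:**
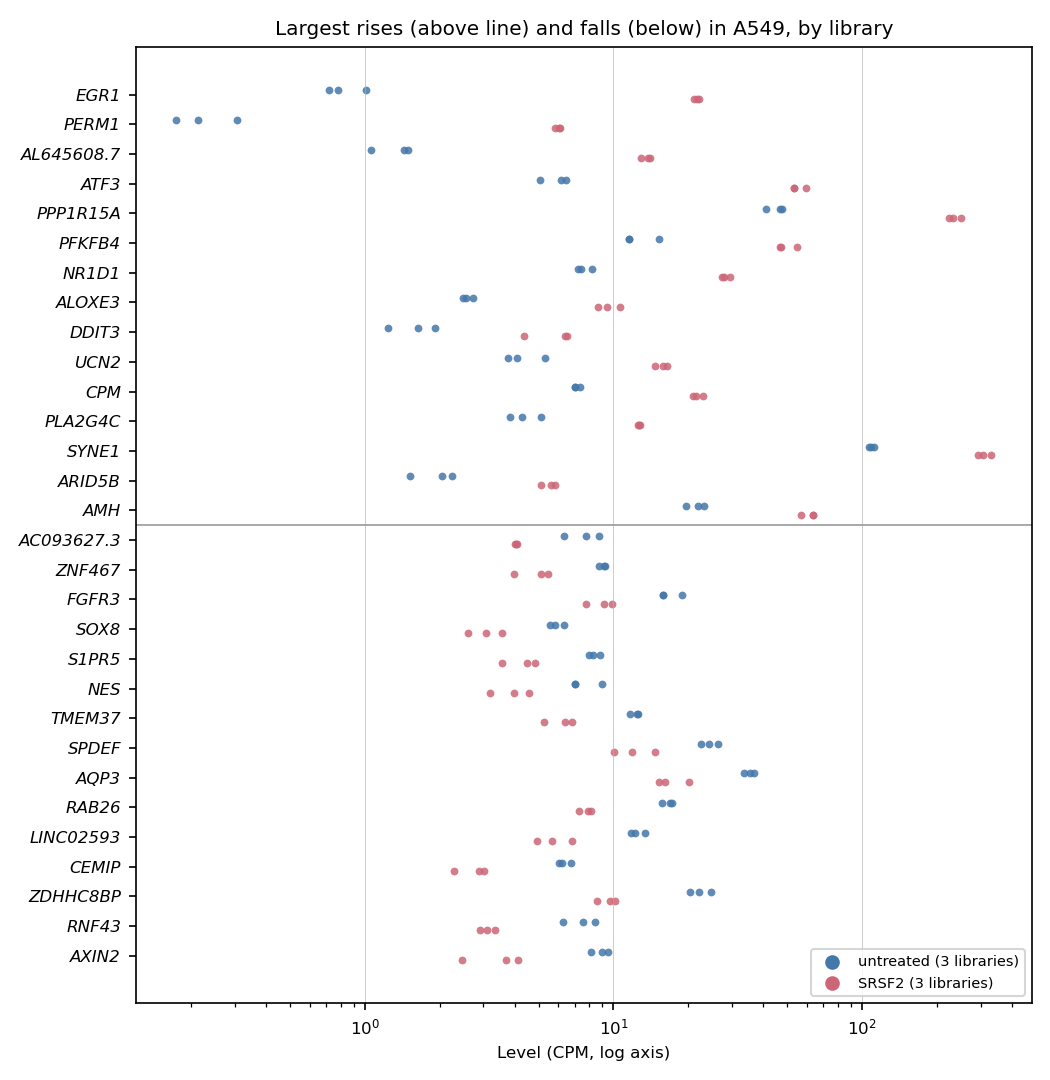
Level in CPM (log axis) of the 15 largest rises and 15 largest falls in A549, 1 point per library. In all 30 genes the 3 SRSF2 points lie to 1 side of the 3 untreated points, as the choice of genes required, and EGR1 spans 0.716 to 22.1 CPM. The row labelled CPM is the gene of carboxypeptidase M.

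Ranked by reads rather than folds, the largest shifts were in abundant genes. CPM is not corrected for gene length, so these are shares of reads. The translation factor EEF1A1 gained 692 CPM, PLEC, which links filaments and adhesions, 632 CPM, and the endoplasmic reticulum chaperone HSPA5 539 CPM. The autophagy receptor SQSTM1 gained 532 CPM, although 22.0% of its exonic bases overlap other genes, mostly MRNIP on the other strand. AHNAK (523 CPM), FLNA (442 CPM), ANXA2 (405 CPM) and MYOF (393 CPM) made up the rest of the 8 largest gains. In the order named, the log2 fold changes of these 8 genes were 0.14, 0.32, 0.76, 0.44, 0.53, 0.18, 0.15 and 0.45. Among losses, the ferritin light chain FTL went from 8713, 8820.5 and 8969 CPM to 7374, 7263 and 7385 CPM. CPLX2, a synaptic exocytosis protein abundant in these cells, went from 2747, 2832 and 2851 CPM to 1451, 1622 and 1708 CPM, a log2 fold change of -0.82 ± 0.04 (SE). The aldehyde dehydrogenase ALDH3A1 went from 2862, 2818 and 2777 CPM to 1782, 1897 and 1954 CPM. For CPLX2 and ALDH3A1 the groups stood apart by many times the spread within a group. AKR1B10, ALDH1A1, KRT8, HSP90AA1 and AKR1C2 completed the 8 largest losses, with log2 fold changes of -0.26, -0.16, -0.15, -0.27 and -0.25. EEF1A1 and FTL have many processed copies in the genome and AKR1C2 has close relatives, so their counts may be split among copies.

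Genes were then read by function in 40 lists, each given as members called higher and lower of those tested and as the median log2 fold change. Over all genes tested these figures were 16.4%, 15.9% and 0.0021. Interferon response genes (56 of 62 higher, median 0.92), p53 targets (29 of 37 higher, median 0.25) and DNA replication genes (46 of 51 lower, median -0.28) are not described further. A list's count describes its members only and was not tested against other lists.

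**Figure D2:**
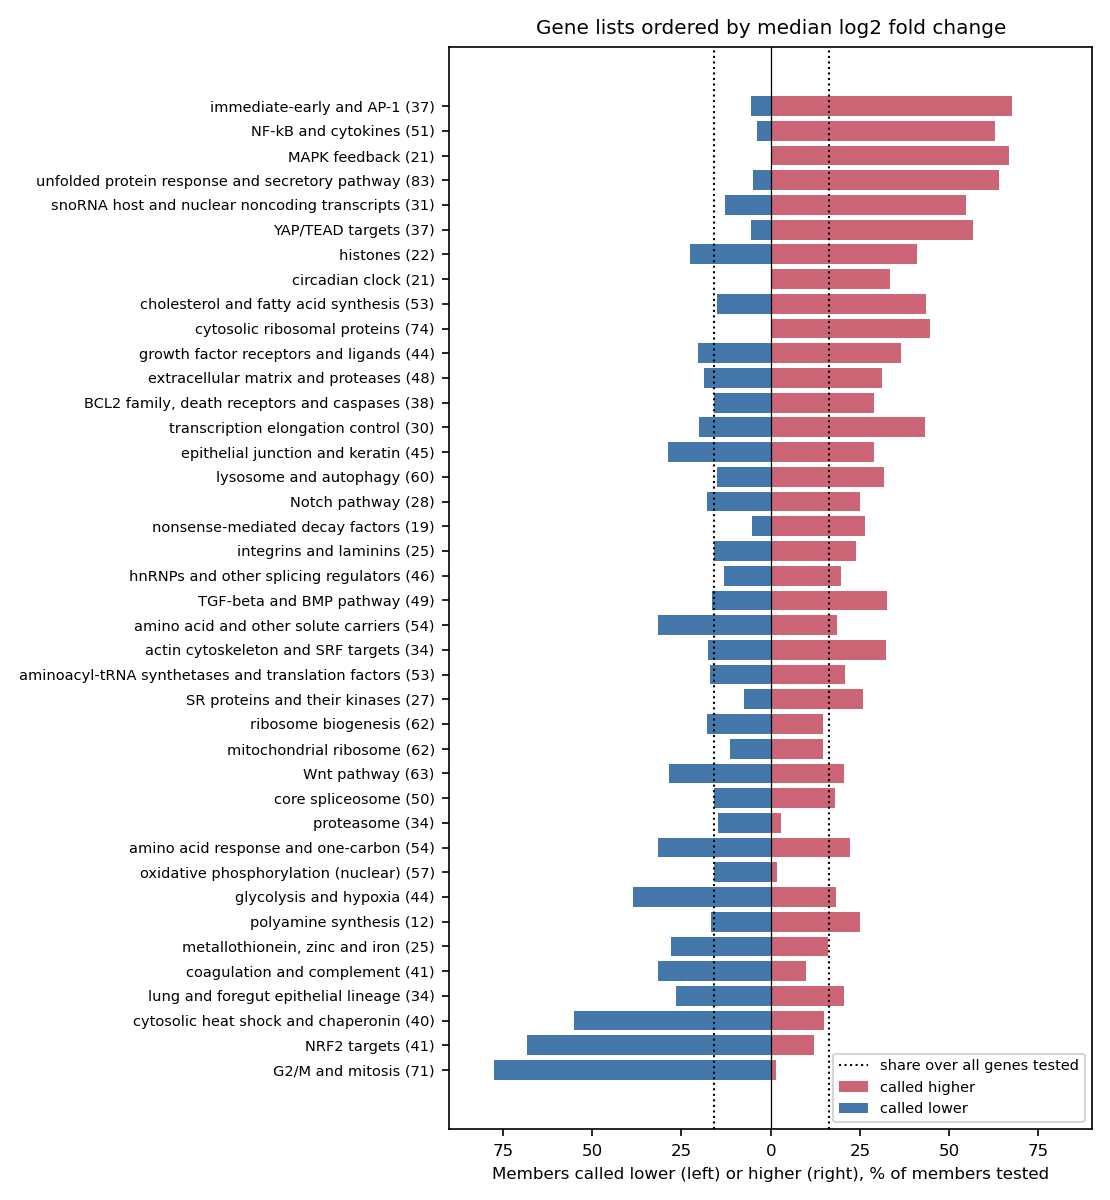
Share of tested members called higher (right) or lower (left) in each of 40 gene lists, with the number tested in brackets and lists ordered by median log2 fold change. Dotted lines mark the shares over all genes tested, 16.4% higher and 15.9% lower, and the immediate-early list stands at the top and the G2/M list at the bottom.

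Proteins that enter the secretory pathway fold in the endoplasmic reticulum (ER). When folding falls behind, the sensors ATF6, IRE1 (gene ERN1) and PERK (gene EIF2AK3) start the unfolded protein response, in which ATF6 and XBP1 switch on chaperone genes through the ER stress response element (ERSE), which is CCAAT and CCACG with 9 bases between them. In A549, 53 of 83 tested genes of this response and of the secretory pathway were higher and 4 lower, with a median log2 fold change of 0.20. The number lower was 2 without untreated replicate 1, untreated replicate 2, untreated replicate 3 or SRSF2 replicate 2 and 7 by DESeq2. These letters were searched on both strands in the 250 bases before the start of 27305 genes of the RefSeq promoter table (GRCh38.p14) and were found in 0.0806% of them, or in 0.116% of the 11244 promoters of genes tested. Among called-higher members with a promoter in the table they occurred in 5 of 49, and among members not called in 2 of 23. Those 5 promoters are shown because they are the members called higher that hold the element. Each is written 5′ to 3′ on the gene's strand, in lower case with ERSE matches in capitals.
HSPA5, chr9:125241344-125241593, minus strand: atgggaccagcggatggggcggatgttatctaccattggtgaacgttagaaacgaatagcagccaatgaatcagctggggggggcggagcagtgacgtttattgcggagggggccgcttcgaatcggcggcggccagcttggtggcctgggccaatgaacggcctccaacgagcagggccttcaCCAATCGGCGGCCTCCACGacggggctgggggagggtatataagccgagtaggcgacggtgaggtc
HSP90B1, chr12:103930160-103930409, plus strand: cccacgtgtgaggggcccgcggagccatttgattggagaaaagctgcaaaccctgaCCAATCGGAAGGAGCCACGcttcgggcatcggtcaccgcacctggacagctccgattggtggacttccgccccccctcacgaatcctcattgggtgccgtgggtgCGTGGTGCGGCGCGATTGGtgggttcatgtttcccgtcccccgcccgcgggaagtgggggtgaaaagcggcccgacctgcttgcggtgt
CALR, chr19:12938359-12938608, plus strand: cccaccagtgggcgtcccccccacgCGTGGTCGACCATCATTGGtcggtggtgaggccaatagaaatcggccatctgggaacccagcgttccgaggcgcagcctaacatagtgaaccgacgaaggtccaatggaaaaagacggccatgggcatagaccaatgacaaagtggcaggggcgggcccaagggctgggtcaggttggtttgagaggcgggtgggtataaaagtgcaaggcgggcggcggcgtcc
CANX, chr5:179698679-179698928, plus strand: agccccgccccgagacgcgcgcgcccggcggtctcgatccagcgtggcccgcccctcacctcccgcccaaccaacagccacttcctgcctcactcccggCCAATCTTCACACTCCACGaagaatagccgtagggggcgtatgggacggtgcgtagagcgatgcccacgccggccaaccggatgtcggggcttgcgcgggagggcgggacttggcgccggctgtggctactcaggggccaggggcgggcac
CRELD2, chr22:49918384-49918633, plus strand: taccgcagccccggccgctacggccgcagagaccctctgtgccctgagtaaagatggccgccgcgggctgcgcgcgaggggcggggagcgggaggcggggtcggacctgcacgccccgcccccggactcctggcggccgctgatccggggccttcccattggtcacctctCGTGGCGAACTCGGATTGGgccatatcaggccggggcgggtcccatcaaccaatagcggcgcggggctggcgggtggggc

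The match nearest to the start ended 47 bases before it in HSPA5, 70 in HSP90B1 (which holds 2), 206 in CALR, 132 in CANX and 61 in CRELD2. A match is a description of the letters and shows no binding.

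Of the chaperones and folding enzymes, 17 of 21 were higher. HSPA5 (BiP), the main ER chaperone, stood at 775, 772 and 788 CPM in untreated and 1325, 1337 and 1288 CPM in SRSF2 libraries, a log2 fold change of 0.76 ± 0.03 (SE, adjusted p = 4.0e-19). DNAJB9, a co-chaperone of BiP, rose from 15.5, 16.2 and 14.7 CPM to 33.6, 35.6 and 33.6 CPM and had the largest log2 fold change of the list, 1.15 ± 0.08 (SE). HYOU1, a nucleotide exchange factor of BiP, rose from 96.9, 99.6 and 104 CPM to 159, 165 and 162 CPM. In all 3 genes the groups were far apart relative to the spread within them. HSP90B1 rose by 0.43 on the log2 scale, CRELD2 by 0.63, CANX, which holds glycoproteins during folding, by 0.33, PDIA4 by 0.29 and MANF by 0.53. In ER-associated degradation 6 of 12 were higher. HERPUD1, a stress-induced part of the degradation complex, rose from 49.2, 45.3 and 48.1 CPM to 89.4, 87.8 and 80.6 CPM (0.85 ± 0.05, SE), while the segregase VCP fell by 0.13 on the log2 scale. Translocation and vesicle traffic had 25 of 41 higher, led by the COPII coat protein SEC24D, from 27.9, 30.6 and 30.9 CPM to 54.4, 53.8 and 49.9 CPM. Of the sensors, EIF2AK3 (0.41) and ERN1 (0.26) rose, while ATF6 (0.08, adjusted p = 0.2) did not pass the test. The transcription factor XBP1 (0.11, adjusted p = 0.25) did not pass either.

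PERK phosphorylates eIF2 alpha, which slows translation and favours that of ATF4, whose targets include amino acid transport genes and PPP1R15A. ATF4 targets had 10 of 22 higher and 4 lower. ATF4 itself stood at 248, 239 and 257 CPM in untreated and 361, 363 and 348 CPM in SRSF2 libraries (0.53 ± 0.04 on the log2 scale, SE). CHAC1, which degrades glutathione, rose from 2.79, 2.62 and 2.25 CPM to 6.62, 6.95 and 7.81 CPM. TRIB3, a pseudokinase that binds ATF4, rose from 65.7, 65.4 and 63 CPM to 90.4, 97.04 and 96.6 CPM. No SRSF2 library of these genes overlapped an untreated one, which held in the higher direction for 22.7% of all genes tested. STC2 (0.77), SESN2 (0.74) and the glutamine transporter SLC38A2 (0.45) were higher as well. ASNS, asparagine synthetase and a standard ATF4 target, stood at 79.2, 81.4 and 78.5 CPM and 79.9, 75.97 and 73.7 CPM and did not pass (-0.06, adjusted p = 0.34), and SLC7A5, the large neutral amino acid transporter, fell by 0.16. Of the serine and one-carbon enzymes 1 of 15 was higher and 4 were lower, among them SHMT1 (-0.38) and SHMT2 (-0.29). Purine and pyrimidine synthesis had 9 of 17 lower, among them PRPS2 (-0.35) and IMPDH1 (-0.28), and only CTPS1 higher (0.16). The whole list of amino acid response and one-carbon genes had 12 of 54 higher and 17 lower, with a median of -0.05.

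Promoters of PPP1R15A and CHAC1 are shown as 2 large ATF4-target rises, each with a different searched element. The cyclic AMP response element TGACGTCA, to which ATF and CREB proteins bind, was found in 1.77% of the 27305 promoters and in 2.8% of the 11244 of genes tested. It was counted for the immediate-early list and not for ATF4 targets. In that list it occurred in 1 of 17 called-higher (MAFF), 1 of 8 not-called and 0 of 2 called-lower members. The element TGATGNAA of ATF4 and C/EBP dimers, searched on both strands, was found in 3.19% of all and 1.45% of tested promoters. TGATGNAA occurred in 2 of 12 called-higher members of the amino acid response list (CHAC1 and MTHFD1L), 1 of 20 members not called and 0 of 14 called lower. It was not found in the promoter of PPP1R15A. The searched letters are in capitals.
PPP1R15A, chr19:48872171-48872420, plus strand, TGACGTCA: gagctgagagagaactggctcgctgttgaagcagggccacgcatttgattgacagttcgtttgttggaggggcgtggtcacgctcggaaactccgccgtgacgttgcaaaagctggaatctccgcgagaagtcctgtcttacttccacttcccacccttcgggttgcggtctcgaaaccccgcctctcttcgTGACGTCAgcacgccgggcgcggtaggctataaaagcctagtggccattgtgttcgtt
CHAC1, chr15:40953221-40953470, plus strand, TGATGNAA: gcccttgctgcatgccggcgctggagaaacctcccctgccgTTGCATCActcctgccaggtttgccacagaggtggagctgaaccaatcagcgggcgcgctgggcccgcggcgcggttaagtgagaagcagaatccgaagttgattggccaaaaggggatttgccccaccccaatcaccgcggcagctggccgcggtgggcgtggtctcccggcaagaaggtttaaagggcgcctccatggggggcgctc

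Cytosolic chaperones went the other way. Of 40 tested heat shock and chaperonin genes, 22 were lower and 6 higher, with a median of -0.10. The inducible HSP70 genes HSPA1A and HSPA1B fell from 161, 156 and 168 CPM to 105, 110.2 and 123 CPM and from 139.7, 145 and 149 CPM to 97.7, 101 and 107 CPM. These genes are near-identical copies, so reads may be split between them. HSP90AA1, the inducible cytosolic HSP90, fell from 2749, 2701 and 2848 CPM to 2333, 2288 and 2269 CPM, and HSPA8, the constitutive HSP70, from 2249, 2159.8 and 2239 CPM to 1837, 1775 and 1784 CPM. All 4 genes had groups that did not overlap, which held in the lower direction for 3673 of all 15991 genes tested. The log2 fold changes of these 4 genes were -0.52, -0.50, -0.27 and -0.30. The co-chaperones DNAJB1 (-0.36), AHSA1 (-0.34) and HSPH1 (-0.22) were lower, whereas DNAJB2 (0.57) and the small heat shock protein HSPB8 (0.77) were higher. The chaperonin group had 6 of 13 lower and 2 higher. Proteasome subunits changed little: 1 of 34 was higher, 5 were lower and the median was -0.03. Calls higher numbered 0 without untreated replicate 2 or SRSF2 replicate 1 and 2 at a mean CPM of at least 1 and in a fit of A549 libraries alone and with the replicate block and without SRSF2 replicate 3, and the number lower was 2 without SRSF2 replicate 2 or SRSF2 replicate 3, 3 without untreated replicate 1 or untreated replicate 3 and 8 with RLE size factors and by DESeq2.

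NRF2 (gene NFE2L2) is held back by KEAP1 and drives genes for glutathione, NADPH and detoxification. A549 is known for a KEAP1 mutation that leaves this programme highly active. Of 41 tested NRF2 targets and regulators, 28 were lower and 5 higher, with a median of -0.17. Detoxifying enzymes had 12 of 18 lower. The cytochrome CYP4F3 fell from 95.7, 106 and 97.96 CPM to 64.01, 67.3 and 69.4 CPM, and the aldo-keto reductases AKR1C1, AKR1C2 and AKR1C3 had log2 fold changes of -0.21, -0.25 and -0.22. NADPH supply had 6 of 7 lower. Among redox enzymes, GSR fell from 580.2, 581 and 586 CPM to 469, 470.3 and 471 CPM, and GCLC, the catalytic subunit of glutathione synthesis, from 444, 453 and 458 CPM to 354, 369 and 363 CPM. For GSR and GCLC the log2 fold changes were -0.31 and -0.32 and no libraries overlapped, as for 3673 of all 15991 genes tested in the lower direction. NQO1 (-0.21) was also lower. TXNRD1 (0.15) was higher, and SLC7A11 did not pass (-0.04, adjusted p = 0.56). The regulators were split: NFE2L2 rose from 153, 148 and 149 CPM to 181, 180 and 176 CPM, the competing repressor BACH1 from 36.7, 34.7 and 33.9 CPM to 49.1, 46.9 and 44.6 CPM, and KEAP1 fell from 156, 155 and 162 CPM to 130, 136 and 136 CPM. Iron and zinc genes had 4 of 25 higher and 7 lower (median -0.06). Ferritin heavy chain FTH1 fell by 0.23 on the log2 scale, with 62.4% of its exonic bases overlapping BEST1 on the other strand, while the transferrin receptor TFRC (0.09, adjusted p = 0.064) and MT2A (-0.06, adjusted p = 0.37) did not pass.

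**Figure D3:**
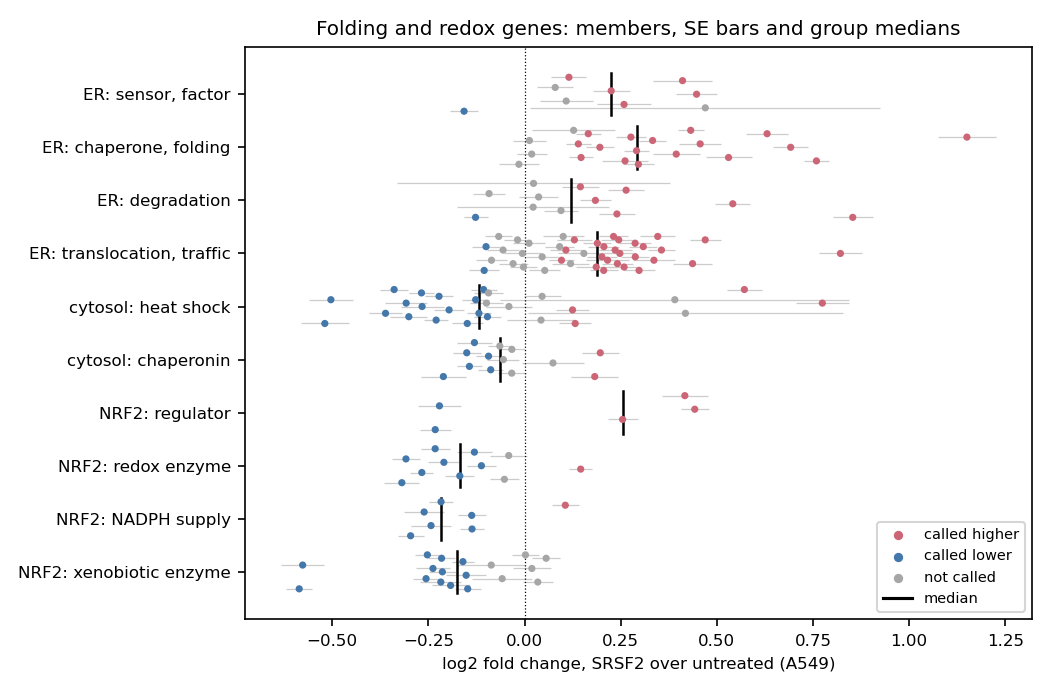
log2 fold change with SE bars of each tested member of the ER, cytosolic chaperone and NRF2 lists by role, coloured by call, with the median of each role as a black line. The medians are 0.29 for ER chaperones, -0.12 for heat shock proteins and -0.18 for detoxifying enzymes.

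Immediate-early genes are switched on by growth factor and stress signals through ERK and related kinases, and many encode subunits of the AP-1 transcription factor. In this list 25 of 37 members were higher and 2 lower, with a median of 0.37. This list held 1 called lower at a mean CPM of at least 1 and without untreated replicate 3 or SRSF2 replicate 1. JUN stood at 94, 89.9 and 92.6 CPM in untreated and 193, 192 and 183 CPM in SRSF2 libraries (1.04 ± 0.08, SE), and FOSL1, a FOS-related AP-1 subunit, at 106, 91.1 and 96.3 CPM and 205, 191 and 183 CPM (0.98 ± 0.06, SE). MAFF, a small MAF protein, stood at 13.1, 10.4 and 10.8 CPM and 29.8, 27.8 and 27.8 CPM. All 3 rose close to or above 2-fold, with no overlap between groups, as in 22.7% of all genes tested. FOS stood at 4.75, 5.02 and 5.76 CPM in untreated and 4.95, 4.73 and 6.08 CPM in SRSF2 libraries and did not pass (0.02, adjusted p = 0.95). FOSL2 (0.57), BHLHE40 (0.46) and MYC (0.29) were higher. The AP-1 letters TGANTCA occurred in 6.6% of all and 4.12% of tested promoters and in 0 of 17 called-higher and 0 of 8 not-called members of this list.

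ERK signalling is limited by dual-specificity phosphatases and by Sprouty proteins that its own output induces. Of these feedback genes 14 of 21 were higher, with a median of 0.22. DUSP5, which acts on nuclear ERK, rose from 85.5, 81.7 and 83.4 CPM to 137, 132 and 129 CPM, and DUSP6, which acts on cytoplasmic ERK, from 11.1, 11.4 and 11.5 CPM to 15.4, 19.7 and 16.3 CPM. DUSP10, which acts on JNK and p38, rose from 5.41, 4.06 and 4.87 CPM to 9.52, 8.59 and 9.07 CPM. The log2 fold changes of these phosphatases were 0.67, 0.60 and 0.92. SPRY2 (0.85), PHLDA1 (0.60) and EPHA2 (0.30) were higher too.

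Of the growth factor receptors 6 of 17 were higher and 4 lower. AXL, the receptor of GAS6, rose from 223, 193 and 208 CPM to 422, 403 and 395 CPM (0.97 ± 0.04, SE), EGFR from 452, 440.1 and 449 CPM to 713, 706 and 695 CPM (0.66 ± 0.04, SE), and MET, the hepatocyte growth factor receptor, from 351, 359 and 365 CPM to 514, 500.1 and 489 CPM (0.48 ± 0.04, SE). These 3 receptors are all well expressed and their groups did not overlap, as in 22.7% of all genes tested. The fibroblast growth factor receptors FGFR2 (-0.83), FGFR3 (-0.91) and FGFR4 (-0.49) fell. ERBB2 (-0.0043, adjusted p = 0.96) and ERBB3 (-0.24, adjusted p = 0.11) did not pass. Of the ligands, the EGFR ligand EREG rose from 158, 149 and 157 CPM to 258, 245 and 225 CPM, HBEGF by 0.51, NRG1 by 0.34 and VEGFC by 0.62 on the log2 scale, while AREG (0.03, adjusted p = 0.85) and VEGFA (0.02, adjusted p = 0.77) did not pass. In the whole list 16 of 44 were higher and 9 lower (median 0.09). Members lower numbered 5 without SRSF2 replicate 2.

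YAP and TAZ act with TEAD factors on genes of adhesion and growth and are restrained by LATS kinases. Of their targets 18 of 24 were higher (median 0.42), and of the upstream effectors 3 of 13 were higher and 2 lower. The count lower became 1 without untreated replicate 2 or SRSF2 replicate 1. CCN1 (CYR61), a matricellular protein and standard target, stood at 64.6, 56.01 and 59.6 CPM in untreated and 147, 142 and 141 CPM in SRSF2 libraries (1.25 ± 0.04, SE, adjusted p = 1.9e-21). ANKRD1 stood at 37.5, 31.9 and 32.2 CPM and 91.2, 80.97 and 78.2 CPM (1.30 ± 0.10, SE), and CCN2 (CTGF) at 30.5, 27.1 and 28.2 CPM and 41.3, 42.3 and 41.8 CPM (0.55 ± 0.06, SE). CCN1 and ANKRD1 more than doubled and CCN2 rose less. AMOTL2 (0.55), NUAK2 (0.67) and LATS2 (0.50) were higher as well, while F3 did not pass (0.12, adjusted p = 0.41). YAP1 stood at 98.1, 96.8 and 103 CPM and 102, 112 and 106 CPM (0.10, adjusted p = 0.0501). The TEAD letters GGAATG, on either strand, occurred in 11.9% of all and 9.31% of tested promoters. They were found in 5 of 18 called-higher members (CCN2, ANKRD1, NUAK2, PTPN14 and TGFB2), in 2 of 10 not called and in 0 of 1 called lower.

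Actin and SRF target genes were mixed, with 11 of 34 higher and 6 lower (median 0.01). Those lower were 3 without untreated replicate 1 or SRSF2 replicate 1. TPM1 (0.22), MYH9 (0.22) and VCL (0.16) were higher and CNN2 (-0.36) and FHOD1 (-0.40) lower. Among adhesion genes, chains of a basement membrane laminin rose: LAMA3 from 118, 123 and 122 CPM to 156, 165 and 169.9 CPM and LAMB3 from 53.5, 51.2 and 47.8 CPM to 69.2, 70.4 and 73.8 CPM. The laminin receptor subunit ITGA3 rose from 858, 825 and 833 CPM to 1159.8, 1132 and 1169.6 CPM, while ITGA6 (0.02, adjusted p = 0.77) and ITGB4 (-0.04, adjusted p = 0.56), the subunits of another laminin receptor, did not pass. In the list of integrins and laminins 6 of 25 were higher and 4 lower (median 0.02). In other fits the number lower was 2 without SRSF2 replicate 1.

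Extracellular matrix genes had 15 of 48 higher and 9 lower (median 0.08). Fibronectin FN1 fell from 1275, 1372 and 1371 CPM to 872, 937 and 1059.6 CPM (-0.49 ± 0.05, SE). COL7A1, the collagen of anchoring fibrils, rose from 335, 319 and 288 CPM to 495, 479 and 496 CPM, and the hyaluronan synthase HAS3 from 29.7, 26.8 and 25.4 CPM to 46.7, 45.96 and 43.97 CPM. The groups of these 3 genes did not overlap. Of all 15991 genes tested, this held for 3673 in the lower and 3624 in the higher direction. The matrix glycoprotein THBS1 was lower (-0.21).

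Junction and keratin genes were evenly divided, with 13 of 45 higher and 13 lower. E-cadherin CDH1 fell from 36.8, 41.7 and 36.01 CPM to 24.98, 25.7 and 28.1 CPM and EPCAM from 5.72, 5.27 and 6.17 CPM to 4.497, 3.37 and 3.297 CPM. The tight junction protein CGN fell by 0.70 on the log2 scale, while CLDN1 rose by 0.50. VIM, the intermediate filament of mesenchymal cells, rose from 442, 405 and 413 CPM to 566, 527 and 520.4 CPM, with 24.4% of its exonic bases overlapping antisense genes, and ZEB2, a repressor of CDH1, from 6.7, 5.65 and 6.37 CPM to 13.5, 11.8 and 13.5 CPM. The neural cadherin CDH2 did not pass (0.18, adjusted p = 0.054). Keratins moved both ways: KRT8 (-0.15) and KRT18 (-0.24) fell, and KRT7 (0.12) and KRT19 (0.30) rose.

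Lung and foregut lineage genes had 7 of 34 higher and 9 lower (median -0.09). The gel-forming mucins MUC5B and MUC5AC fell from 189, 210.2 and 194 CPM to 107, 118 and 145 CPM and from 232, 239 and 221 CPM to 159, 164 and 184 CPM. MUC1 (0.80) and the endoderm factor GATA6 (1.10) rose, the latter from 3.63, 3.22 and 2.73 CPM to 6.62, 7.197 and 6.67 CPM, while FOXA1 (-0.14, adjusted p = 0.11) and FOXA2 (-0.14, adjusted p = 0.094) did not pass. A549 cells also make liver-type plasma proteins. Of coagulation and complement genes 13 of 41 were lower and 4 higher (median -0.09), among the former the fibrinogen chain FGB (-0.39) and C5 (-0.48). CD55, which protects cells from complement, rose from 103, 95.9 and 100.3 CPM to 155, 153 and 149 CPM.

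In Wnt signalling beta-catenin drives TCF/LEF target genes, several of which encode inhibitors of the pathway. Of 63 pathway genes 13 were higher and 18 lower (median -0.03). Of 16 inhibitors 6 were lower and 4 higher. Besides AXIN2 and RNF43, the inhibitors ZNRF3 and NKD1 fell, ZNRF3 from 53.7, 57.2 and 56.3 CPM to 39.4, 44.4 and 43.5 CPM and NKD1 from 1.64, 2.403 and 1.84 CPM to 0.9402, 1.15 and 0.942 CPM. TCF7 (-0.46), the receptor FZD7 (-0.58) and the ligand WNT5A (-0.87) were lower too. The repressor TLE4 rose from 38.4, 38.8 and 35.3 CPM to 65.3, 63.4 and 60.1 CPM, and CD44 (0.36) was higher. DKK1 stood at 427, 419.6 and 437 CPM and 417, 441 and 432 CPM and did not pass (0.01, adjusted p = 0.93). The TCF letters ATCAAAG occurred in 2.28% of all and 1.32% of tested promoters, and in 0 of 13 called-lower, 0 of 10 called-higher and 1 of 22 not-called members whose promoter was searched. The promoter of AXIN2 was not analysed here.

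Notch receptors and ligands went in both directions. NOTCH3 fell from 137, 149 and 138 CPM to 69.5, 79.03 and 90.1 CPM (-0.83 ± 0.06, SE) and NOTCH1 by 0.21 on the log2 scale, while NOTCH2 (0.19) rose. The ligand JAG1 rose from 89.1, 92.8 and 93.5 CPM to 131, 138 and 136 CPM. The target genes HES1 (0.22, adjusted p = 0.12) and HEY1 (-0.10, adjusted p = 0.84) did not pass, and in the list 7 of 28 were higher and 5 lower (median 0.03). Under other settings the number higher was 4 without untreated replicate 1.

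TGF-beta signals through SMAD2 and SMAD3, and BMPs through SMADs that induce the ID genes. In this list 16 of 49 were higher and 8 lower (median 0.01). TGFB2 rose from 89.96, 81.8 and 86 CPM to 154, 144 and 136 CPM, SMAD3 by 0.25 and the inhibitor SMAD7 by 0.47 on the log2 scale. On the BMP side, BMP4 fell from 25.02, 24.5 and 25.6 CPM to 13.4, 15.3 and 14.8 CPM, and its targets ID1 from 470.2, 464 and 467 CPM to 334, 343 and 359 CPM and ID2 by 0.40. ID3 did not pass (0.01, adjusted p = 0.85). The BMP and activin antagonists GREM1 (0.74) and FST (1.66) were higher, FST from 1.74, 1.24 and 1.499 CPM to 5.07, 3.93 and 5.22 CPM.

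NF-kB is held in the cytoplasm by inhibitors that are among its own targets. Of 51 NF-kB and cytokine genes 32 were higher and 2 lower (median 0.27). The number lower was 1 without untreated replicate 2 or SRSF2 replicate 1. Of the subunits and inhibitors 15 of 17 were higher. NFKB2 stood at 178, 158 and 160.2 CPM in untreated and 288, 270.4 and 273 CPM in SRSF2 libraries (0.74 ± 0.05, SE), RELB at 48.7, 45.3 and 44.2 CPM and 74.8, 70.8 and 75.1 CPM, and TNFAIP3 (A20), a ubiquitin-editing inhibitor, at 21.98, 21.3 and 21.2 CPM and 39.04, 38.5 and 36.2 CPM. NFKB2 and RELB form the dimer of the alternative pathway and rose by similar amounts. NFKBIA (0.35) and NFKB1 (0.34) rose less. SOCS3, an inhibitor of cytokine receptors, rose from 28.5, 26.4 and 27.9 CPM to 61.9, 56.5 and 59.9 CPM, BIRC3 by 0.72 and CXCL8 by 0.60 on the log2 scale, while CXCL1 (-0.03, adjusted p = 0.78) and ICAM1 (0.12, adjusted p = 0.7) did not pass. Of 38 genes of the BCL2 family, death receptors and caspases 11 were higher and 6 lower (median 0.06). The anti-apoptotic MCL1 (0.32), CFLAR (0.36) and BIRC2 (0.41) and the decoy receptor TNFRSF10D (0.63) were higher, BCL2L11 (BIM) was lower (-0.32), and 2 of 10 caspases were lower.

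Glycolytic genes were mostly lower apart from PFKFB4, with 14 of 24 lower and 2 higher. The glucose transporter SLC2A3 fell from 53.5, 50.9 and 49.7 CPM to 35.3, 36.96 and 32.4 CPM, and PFKFB3, the relative of PFKFB4, from 808, 852 and 846 CPM to 693, 688 and 723 CPM. Phosphofructokinase isoforms divided: PFKM (-0.32) and PFKL (-0.29) fell and PFKP (0.28) rose. LDHA did not pass (-0.07, adjusted p = 0.14). Hypoxia genes had 6 of 20 higher and 3 lower. ADM, a vasodilator peptide, rose from 77.2, 71.8 and 73.1 CPM to 123, 126 and 126 CPM and the demethylase KDM3A from 60.7, 65.5 and 63.1 CPM to 98.1, 95.2 and 93.8 CPM, while EGLN3 fell from 18.8, 20.8 and 22.4 CPM to 10.9, 9.35 and 13.6 CPM, and CA9 (-0.29, adjusted p = 0.46) and NDRG1 (0.03, adjusted p = 0.56) did not pass. The combined list had 8 of 44 higher and 17 lower (median -0.06). Nuclear genes of oxidative phosphorylation had 1 of 57 higher and 9 lower (median -0.05), with CYC1 at -0.15 and ATP5F1A at -0.13. Calls higher numbered 0 at a mean CPM of at least 1 and without untreated replicate 1 or SRSF2 replicate 1, and the number lower was 4 without untreated replicate 3 and 14 by DESeq2. Mitochondrial ribosomal proteins had 9 of 62 higher and 7 lower (median -0.01), MRPS18B among the former (0.25) and MRPL16 among the latter (-0.23). This list held 3 called higher without untreated replicate 2 or SRSF2 replicate 1 and 4 by DESeq2 and without SRSF2 replicate 2.

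Cholesterol synthesis is switched on by SREBP2 (gene SREBF2), which is retained in the ER by INSIG1. Of cholesterol genes 15 of 26 were higher and 2 lower (median 0.20). HMGCS1, an early enzyme of the pathway, rose from 164, 172 and 159 CPM to 284, 266 and 236 CPM (0.67 ± 0.06, SE), and INSIG1 from 31.3, 32.2 and 32.8 CPM to 50.3, 51.1 and 46.2 CPM. Both genes and SQLE (0.35) and MSMO1 (0.52) were higher alongside the cholesterol exporter ABCA1, which is induced by sterols and stood at 20.4, 22.9 and 23.5 CPM and 44.4, 39.98 and 42.9 CPM. SREBF2 rose (0.19) and SREBF1 fell (-0.35), and the fatty acid genes FASN (-0.03, adjusted p = 0.63) and SCD (-0.02, adjusted p = 0.76) did not pass. Of lipid droplet genes PLIN2 (0.53) and PPARG (0.45) were higher. The whole list had 23 of 53 higher and 8 lower (median 0.11). Members lower numbered 5 without SRSF2 replicate 2.

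Solute carriers had 10 of 54 higher and 17 lower (median 0.01). The sodium, potassium and chloride cotransporter SLC12A2 fell from 370.5, 385 and 384 CPM to 201, 212 and 224 CPM (-0.84 ± 0.04, SE, adjusted p = 3.1e-17). SLC7A7 (-0.60) and SLC1A4 (-0.48) were lower and SLC26A2 (0.49) higher. Polyamine enzymes had 3 of 12 higher and 2 lower (median -0.06). SMOX, which oxidises spermine, rose (0.34), MAT2A, which makes S-adenosylmethionine, fell (-0.28), and ODC1 did not pass (0.07, adjusted p = 0.21). The count lower became 1 without untreated replicate 3 or SRSF2 replicate 2.

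Of 12 other SR proteins tested 1 was higher and 2 were lower. SRSF7 fell from 282, 288 and 296 CPM to 250, 237 and 235 CPM (-0.26 ± 0.04, SE), while SRSF1 (-0.02, adjusted p = 0.8), SRSF3 (-0.01, adjusted p = 0.9) and SRSF6 (0.0015, adjusted p = 0.98) did not pass. Of their kinases 5 of 9 were higher. CLK1 rose from 36.95, 36.01 and 39.1 CPM to 60.3, 58.7 and 58.4 CPM (0.66 ± 0.05, SE) and DYRK1A from 54.7, 51.2 and 51.2 CPM to 71.2, 71.1 and 62.8 CPM, and CLK4 by 0.33 on the log2 scale. The list as a whole had 7 of 27 higher and 2 lower (median 0.005). Those higher were 4 without untreated replicate 1, and the number lower was 1 without untreated replicate 1, untreated replicate 3, SRSF2 replicate 1, SRSF2 replicate 2 or SRSF2 replicate 3. Core spliceosome genes had 9 of 50 higher and 8 lower (median -0.03), for example the U1 protein SNRNP70 (-0.20) and PRPF8 (-0.16) lower. In other fits the number higher was 5 with RLE size factors and without untreated replicate 2 or untreated replicate 3, and the number lower was 5 without SRSF2 replicate 1 or SRSF2 replicate 2.

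Other splicing regulators had 9 of 46 higher and 6 lower (median 0.02). MBNL2, a muscleblind splicing regulator, rose from 32.9, 29.5 and 29.4 CPM to 60.5, 56.95 and 56.4 CPM (0.92 ± 0.06, SE), with PTBP2 (0.39) and QKI (0.29) also higher and HNRNPAB (-0.27) lower. Under other settings the number lower was 2 without untreated replicate 3, 3 without untreated replicate 1, untreated replicate 2, SRSF2 replicate 1 or SRSF2 replicate 2 and 10 in a fit of A549 libraries alone. Nonsense-mediated decay factors, which remove transcripts with early stop codons, had 5 of 19 higher and 1 lower (median 0.02), among them NBAS higher (0.35), EIF4A3 lower (-0.21) and UPF1 not passing (-0.02, adjusted p = 0.8). The number higher was 3 without untreated replicate 1.

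The host genes of small nucleolar RNAs give spliced noncoding transcripts, many of which are degraded by nonsense-mediated decay. Together with other nuclear noncoding RNAs they had 17 of 31 higher and 4 lower (median 0.19), against 10.7% higher and 4.64% lower among all 1960 long noncoding genes tested. The median level of that class was only 1.04 CPM, and lower levels give fewer calls. In the quintile of highest level 25.4% of all genes tested were higher and 25.3% lower. GAS5 rose from 93.6, 93.2 and 91.01 CPM to 154, 143 and 134 CPM (0.63 ± 0.05, SE), ZFAS1 from 123, 119 and 121 CPM to 179, 174 and 159 CPM and SNHG32 from 38.8, 33.9 and 40.5 CPM to 59.6, 60.98 and 53.7 CPM. These 3 hosts rose by similar amounts, whereas DANCR fell from 31.4, 32.2 and 31.6 CPM to 23.4, 22.9 and 23.1 CPM. PVT1 (0.60), LINC-PINT (0.83) and MALAT1, the abundant RNA of nuclear speckles (0.36), rose, and NEAT1, the scaffold of paraspeckles, stood at 719, 732 and 732 CPM and 735, 727 and 743 CPM (0.01, adjusted p = 0.81). Elongation factors had 13 of 30 higher and 6 lower (median 0.06). HEXIM1, which holds the kinase P-TEFb inactive in the 7SK complex, fell from 263, 267 and 269 CPM to 207, 213 and 199 CPM (-0.37 ± 0.04, SE), and MEPCE of the same complex fell by 0.23. CDK9, the kinase itself, did not pass (-0.08, adjusted p = 0.25), while AFF4, a scaffold that recruits it, was higher (0.32). Calls higher numbered 8 with RLE size factors and by DESeq2, and the number lower was 3 without SRSF2 replicate 2.

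Cytosolic ribosomal protein genes rose by small amounts, with 33 of 74 higher (median 0.09). This list held 11 called higher without SRSF2 replicate 1, 13 without untreated replicate 2, 16 with RLE size factors and by DESeq2, 20 without SRSF2 replicate 2 and 50 in a fit of A549 libraries alone. The size of this count therefore depended on the scaling and on single libraries. RPL13A stood at 2219.8, 2167 and 2178 CPM and 2665, 2549 and 2515 CPM (0.24 ± 0.03, SE) and RPS13 at 289.9, 286 and 295 CPM and 348, 329.6 and 319 CPM (0.19 ± 0.04, SE). Ribosomal protein genes have many processed copies that can share reads. Ribosome biogenesis genes had 9 of 62 higher and 11 lower (median -0.00099), with DDX10 higher (0.40), FBL lower (-0.16) and NCL not passing (-0.02, adjusted p = 0.62). Members higher numbered 5 without SRSF2 replicate 1, and the number lower was 7 without SRSF2 replicate 2. Aminoacyl-tRNA synthetases and translation factors had 11 of 53 higher and 9 lower (median 0.01), with EIF4A2 (0.36) and WARS1 (0.28) higher and QARS1 (-0.31) lower.

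Lysosome and autophagy genes had 19 of 60 higher and 9 lower (median 0.04), and the autophagy genes alone 12 of 25 higher and 1 lower. The count lower became 5 without SRSF2 replicate 1. MITF, a transcription factor related to TFEB, rose from 28.7, 27.2 and 26.7 CPM to 56.4, 51.8 and 53.7 CPM (0.97 ± 0.06, SE), and NPC1, which exports cholesterol from lysosomes, from 82.8, 85.8 and 87.8 CPM to 135, 133 and 134 CPM. The autophagy receptors OPTN and NBR1 rose from 65.9, 59.6 and 60.3 CPM to 90.1, 94.2 and 89.9 CPM and from 117, 124 and 123 CPM to 166, 154 and 161 CPM. MAP1LC3B (0.37) and GABARAPL1 (0.36), which coat the autophagosome, were higher, ULK1 did not pass (0.04, adjusted p = 0.46), and the cathepsin CTSL (-0.16) was lower.

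Clock genes had 7 of 21 higher (median 0.13). Besides NR1D1, its relative NR1D2 rose from 33.4, 33.2 and 32.8 CPM to 71.2, 67.7 and 60.9 CPM and PER1 from 9.56, 8.8 and 9.68 CPM to 21.8, 20.8 and 22.96 CPM. PER2 (0.09, adjusted p = 0.47), CRY1 (0.12, adjusted p = 0.14) and DBP (-0.19, adjusted p = 0.45) did not pass. NFIL3, a repressor of clock output, was higher (0.85).

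Genes of G2 and mitosis had 55 of 71 lower and 1 higher (median -0.23). Those higher were 2 without SRSF2 replicate 3. The proliferation marker MKI67 stood at 754, 797 and 777 CPM in untreated and 589.6, 595 and 585 CPM in SRSF2 libraries (-0.39 ± 0.05, SE), and the kinetochore protein SPC24 at 32.5, 34.1 and 32.9 CPM and 19.4, 20.3 and 21.9 CPM (-0.69 ± 0.07, SE). CCND3, a D-type cyclin, fell from 594, 596 and 585 CPM to 404, 426 and 433 CPM (-0.49 ± 0.04, SE). The groups of these 3 genes did not overlap, which held in the lower direction for 3673 of all 15991 genes tested. CCNB1 (-0.26) and PLK1 (-0.28) were lower too. CDK6 rose (0.19). Histone genes divided by class. Replication-dependent histone transcripts usually end without a poly(A) tail, so a library of polyadenylated RNA holds only their polyadenylated forms. Of these 8 of 14 were higher, such as H2AC6, from 19.6, 17.99 and 20.1 CPM to 30.6, 28.02 and 30.9 CPM, and H1-2 (0.39). Of the variant histones 5 of 8 were lower and 1 higher: H2AX fell from 203, 193 and 186 CPM to 141, 130.1 and 144 CPM and H2AZ1 from 240.2, 243 and 243 CPM to 199.6, 193 and 191 CPM. Histone genes are close copies of each other, so reads may be split among them.

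Calls also differed between kinds of genes. Among 12904 protein-coding genes 17.9% were higher and 18.5% lower, and among 692 pseudogenes 6.65% and 5.06%. Among 1960 long noncoding genes 10.7% were higher and 4.64% lower. The median level of the latter was 1.04 CPM, against 28.2 CPM for protein-coding genes, and lower levels give fewer calls. In the quintile of lowest level, over all kinds of genes, 6.91% were higher and 2.53% lower. More calls higher than lower were thus not particular to long noncoding genes. After AL645608.7, the largest noncoding rises were in LINC02709, from 1.64, 2.09 and 2.18 CPM to 6.09, 5.53 and 4.55 CPM, MHENCR, from 6.11, 6.503 and 6.41 CPM to 14.3, 13.7 and 16.4 CPM, and AC091212.1 (0.98 on the log2 scale). After LINC02593 and AC093627.3, the largest noncoding falls were in LINC02643, from 5.304, 5.34 and 5.66 CPM to 2.82, 3.65 and 4.16 CPM, and MINCR (-0.60).

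Protein-coding genes that span more of the genome were called higher more often. In the quintile of shortest span (381 to 11674 bases) 14.5% were higher and 22.2% lower, and in the quintile of longest span (105749 to 2304997 bases) 24.8% were higher and 13.3% lower. The quintiles between ran from 14.4% to 19.7% higher and from 20.5% to 16.5% lower. Median log2 fold changes rose from -0.04 to 0.04 over the 5 quintiles, far less than the changes of the genes named above. Median levels ran from 19.8 to 32.9 CPM over the quintiles. Genes with over 20 exons were 23.7% higher and 18.2% lower, against 15.5% and 17.3% of genes with 3 to 5 exons. The share lower exceeded the share higher on 12 of 23 chromosomes, among them 17 (23.1% and 13.2%), 19 (20.8% and 11.2%) and 22 (20.7% and 10.7%), and the reverse held on 11, among them 3 (13.5% and 21.5%), 5 (12.2% and 20.7%) and 13 (9.3% and 19%). The strandedness of the authors' counting is not given in the sources used here, so reads of overlapping genes cannot be told apart. Besides the genes marked above, over 20% of the exonic bases are shared with another gene for SRSF1 (60.7%), ZFAS1 (46.9%), ASNS (44.6%), DUSP6 (40.5%), CA9 (38.5%), HSPA1B (36.5%), LINC-PINT (29.6%), SNHG32 (29.1%), TGFB2 (26.6%), ICAM1 (23.6%), TPM1 (21.4%) and NFE2L2 (20.9%). No test was made of the classes by kind, span, exons or chromosome, and these properties go together.

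**Figure D4:**
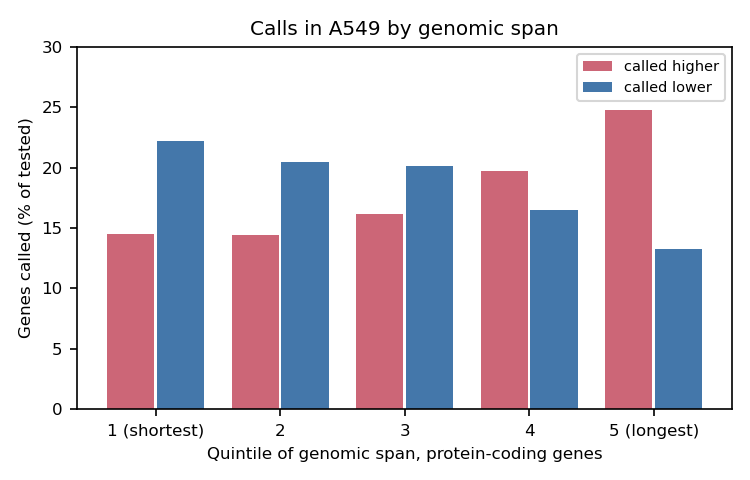
Share of protein-coding genes called higher and lower in A549, by quintile of genomic span. The share higher is 14.5% in the shortest and 24.8% in the longest quintile, and the share lower is 22.2% and 13.3%.

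In H1650, where 62.3% of the genes tested were called, the same contrast was fitted in the same model and the difference between the lines was tested for each gene. This difference passed for 7601 genes (47.5%), and 955 of them were called in opposite directions in the 2 lines. Several of the genes above changed in A549 and went the other way in H1650. PFKFB4 had a log2 fold change of 1.95 in A549 and -0.51 in H1650 (difference 2.47, adjusted p = 1.7e-16), PER1 of 1.22 and -0.45 (adjusted p = 2.2e-13) and CHAC1 of 1.48 and -0.37 (adjusted p = 8.2e-13). The cholesterol exporter ABCA1 stood at 0.93 and -0.75 (adjusted p = 2.9e-18) and JAG1 at 0.56 and -0.58 (adjusted p = 3.4e-16). FN1 fell in A549 (-0.49) and was at 1.26 in H1650 (adjusted p = 3.2e-21). FOS, which did not pass in A549, was at 3.28 in H1650 (adjusted p of the difference = 4.5e-15). For NOTCH3 (-0.83 and -0.83), ATF3 (3.23 and 3.40), SLC12A2 (-0.84 and -0.71) and HERPUD1 (0.85 and 0.97) the difference did not pass, with adjusted p of 0.97, 0.43, 0.11 and 0.18, which does not show that they changed alike.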

How the data were processed

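Raw read counts per gene for all 12 libraries were deposited by the authors. The submitters' processing notes name featureCounts 2.0.0, STAR 2.7.7a and fastp 0.20.1, and the build GRCh38. The gene annotation and the strandedness of counting are not given in the sources used here. A deposited FPKM table was not used. Of 16599 gene IDs, 16139 were found in GENCODE 29, which gave positions, and 460 had no symbol.

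The quasi-likelihood test of edgeR 4.0.16 (R 4.3.3) was used on these counts, after its expression filter (15991 genes) and TMM scaling. All 4 groups of 3 libraries entered 1 fit with 8 residual degrees of freedom. The coefficient of variation between replicates, beyond sampling noise, was 0.0298 in untreated and 0.0344 in SRSF2 libraries of A549. In H1650 it was 0.0338 and 0.0559, so the spread pooled in the fit was not equal between groups. With A549 libraries alone, 2927 genes were called higher and 2902 lower. The Benjamini-Hochberg adjusted p threshold was 0.05, and each SE was taken as the log2 fold change divided by the square root of F. Replicates in a group differed beyond sampling noise (chi-square per degree of freedom 2.24 to 3.60), so none was counted as a copy.

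Members and lists were chosen with earlier results of these data known. Named were the 15 largest rises and falls with at least 5 CPM and groups apart, the 8 largest CPM gains and losses, the 5 largest noncoding rises and falls, preset members of each list and its 6 lowest adjusted p. Interferon, p53 and replication genes were left out of these rankings. CRELD2, CANX, SHMT1, PRPS2, IMPDH1, CTPS1, BACH1, KEAP1, FGFR2, FGFR4, NRG1, VEGFC, FZD7, WNT5A, GREM1, PFKM, PFKL, DANCR, MTHFD1L, PTPN14, VCP and ID2 were named after their values were seen.

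Alternatives were RLE size factors, library totals, DESeq2 1.42.0, limma-voom (limma 3.58.1) and a mean of at least 1 CPM over all 12 libraries. Others were no filter, A549 libraries alone, the replicate number as a block and each A549 library left out.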

Additional observations from a re-analysis of the deposited data

Results flagged for a closer look

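Of the 30 genes with the largest rises and falls in A549, 21 changed by a different amount in H1650, by edgeR's test of the difference with Benjamini-Hochberg adjustment, which passed for 47.5% of all genes tested. The 30 genes were chosen by their change in A549, which enters the difference and favours a large one. The number passing therefore cannot be set directly against that share. Values are the log2 fold change in A549 minus that in H1650. The rise was larger in A549 for PERM1 (3.64), EGR1 (2.53), DDIT3 (1.20), SYNE1 (1.18), AMH (1.02), ARID5B (1.01), NR1D1 (0.84) and ALOXE3 (0.55). It was smaller in A549 for AL645608.7 (-1.11), PLA2G4C (-1.11) and PPP1R15A (-0.88). The fall was larger in A549 for FGFR3 (-0.61) and ZDHHC8BP (-0.53). In the other 8 genes the fitted fold change had the opposite sign in H1650. Of these, UCN2 (3.77), PFKFB4 (2.47) and the carboxypeptidase gene CPM (1.75) rose in A549. SOX8 (-4.88), AQP3 (-2.73), RNF43 (-1.77), SPDEF (-1.37) and ZNF467 (-0.98) fell in A549. The values in brackets compare changes and not levels between the lines. The value of ZNF467 in H1650 was 0.08 and that of CPM -0.13, both close to 0. SOX8 stood at 5.55, 5.796 and 6.34 CPM in untreated and 3.07, 2.61 and 3.57 CPM in SRSF2 libraries of A549. Mean H1650 levels in untreated and SRSF2 libraries were 0.199 and 0.0459 CPM for UCN2, 0.0214 and 0.401 CPM for SOX8, and 0.186 and 0.243 CPM for SPDEF (adjusted p = 0.56 in H1650). These levels rest on few counts, so the size of the 3 differences, and the sign of SPDEF in H1650, is uncertain.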

How the results depend on the processing

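With genes of a mean below 1 CPM over all 12 libraries left out, 13600 genes in place of 15991 were tested. Of them 171 in place of 280 were higher by at least 1 on the log2 scale and 25 in place of 60 lower. Large folds were thus more frequent among the genes left out, whose folds rest on few counts. No other setting moved the counts of called genes by over 1.5 times. Genes called higher numbered 2190 (DESeq2) to 2927 (A549 libraries alone) and genes called lower 2465 to 2988. The share higher among calls was 43.7% with RLE size factors against 50.8%, and scaling moved the median of all genes by at most -0.0215 on the log2 scale. With single A549 libraries left out, 2180 to 2422 genes were higher, 2008 to 2287 lower, 255 to 298 and 58 to 80 past 1 on the log2 scale, and 7149 to 7277 differed between lines.

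Of 526 named or listed genes, 67 changed their side of the threshold in at least 1 setting and 0 of the called genes changed direction. None of those 67 is described in the results as risen or fallen. List counts that moved by over 1.5 times are given with each list. Replicate numbers did not pair the samples (correlations of deviations 0.0236, -0.0196 and -0.00115). With the replicate block 2651 genes were higher and 2534 lower, 286 and 60 past 1 on the log2 scale, and 7624 differed between lines. A count of 3 corresponds to 0.105 to 0.126 CPM, so changes of genes near that level could not be measured.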

Other observations

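PERM1 and AL645608.7, both among the largest rises, lie close together on chromosome 1, and values of their neighbours (chosen after the largest changes were seen) are given in order of position on GRCh38. AL645608.6 (904834 to 915976) fell from 4.75, 4.52 and 5.38 CPM to 1.88, 2.57 and 2.67 CPM, LINC02593 (916865 to 921016) from 11.8, 13.4 and 12.3 CPM to 4.95, 5.67 and 6.79 CPM and SAMD11 (923928 to 944581) from 35.1, 37.3 and 35.3 CPM to 19.7, 22.3 and 23.4 CPM. NOC2L, which follows, had a log2 fold change of -0.13, and KLHL17 (-0.07, adjusted p = 0.6) and PLEKHN1 (-0.06, adjusted p = 0.76) did not pass edgeR's test. Beyond them PERM1 and AL645608.7 rose, HES4 stood at 7.85, 7.92 and 8.45 CPM and 9.73, 9.35 and 11.4 CPM, and ISG15 at 4.29, 3.04 and 3.48 CPM and 23.3, 21.6 and 23.1 CPM. The 3 genes before NOC2L were lower, and PERM1, AL645608.7 and ISG15 higher, in SRSF2 libraries. The calls of NOC2L (lost without untreated replicate 2 or SRSF2 replicate 2) and HES4 (lost by limma-voom and without SRSF2 replicate 3) depended on the setting. The same sign was seen in H1650 for LINC02593 (-0.86), SAMD11 (-0.96), AL645608.6 (-1.22), PERM1 (1.02), AL645608.7 (4.47), HES4 (2.21) and ISG15 (1.95). No test was made of the order of these genes.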
